A study of Mus musculus with 4 samples.

Results

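Collagen crosslinking and folding enzymes were examined in 3T3-L1 cells on day 8 of adipogenic differentiation. These are 10 genes listed by name for their known roles, with earlier results of these data known: the lysyl oxidases Lox, Loxl1, Loxl2 and Loxl3, the lysyl hydroxylases Plod1, Plod2 and Plod3, the prolyl 4-hydroxylase subunits P4ha2 and P4ha3, and the collagen chaperone gene Serpinh1. All 10 were found among the 13085 genes of the series, each as 1 row of the deposited table. 3T3-L1 is a murine preadipocyte line that fills with lipid when it is given a hormone mixture, and here all lines received insulin, dexamethasone, IBMX and rosiglitazone at the start and insulin afterwards. RNA-seq was done on 4 stable lines with 1 sample each. FLAG cells carry the empty FLAG vector, and FLAG-CACUL1 cells overexpress tagged CACUL1. The sh-Luc cells carry a hairpin against luciferase, and in sh-CACUL1 cells a hairpin depletes CACUL1. The FLAG lines were selected with G418 and the hairpin lines with Hygromycin B, so each condition was compared with the control of its own vector. The knockdown rests on 1 hairpin sequence, and it is not stated whether a line is 1 clone or a pool of colonies. The study asked how CACUL1 affects PPARγ and adipocyte differentiation.

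Fibrillar collagen is built inside the endoplasmic reticulum and finished outside the cell. Prolyl 4-hydroxylases hydroxylate prolines so that the triple helix is stable, lysyl hydroxylases modify lysines that later take part in crosslinks, and the chaperone HSP47, encoded by Serpinh1, binds the folded procollagen on its way out. Lysyl oxidases then oxidize lysines of secreted collagen and elastin, after which the fibers crosslink. Preadipocytes live in a matrix rich in fibrillar collagen, and this matrix is remodeled when they become fat cells.

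Values are FPKM, fragments counted per length of transcript and depth of the sample, so levels of different genes can be set side by side per length. A change is the difference of log2(FPKM + 1), and 2-fold was the cut-off. Adding 1 makes changes of weakly expressed genes look smaller. A ratio is given without it, with a 95% interval that covers counting error only and rests on depths estimated from the steps of low FPKM values, at about 14500000 and 14300000 fragments for FLAG and FLAG-CACUL1 and at about 23900000 and 15100000 for sh-Luc and sh-CACUL1. With 1 sample per group no gene was tested, and no interval stands for the spread between cultures. Cacul1 itself had 9.61 FPKM in FLAG and 11.8 with FLAG-CACUL1, and in the hairpin lines 10.2 with sh-Luc and 5.39 with sh-CACUL1. Its log2 changes of 0.27 and -0.82 were both under the cut-off. The study checked overexpression and knockdown by western blot. In bulk RNA, fewer cells of a type and less RNA per cell cannot be told apart.

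In sh-CACUL1 cells 8 of the 10 enzymes were at least 2-fold lower than in sh-Luc cells and 0 were 2-fold higher, where 16.4% of all genes were lower and 4.94% were higher. The 8 were Lox, Loxl1, Loxl3, Plod1, Plod3, P4ha2, P4ha3 and Serpinh1, and the median change of the 10 was -1.59 on the log2 scale against -0.30 over all genes. In FLAG-CACUL1 cells the enzymes split. Relative to FLAG, 4 of 10 were 2-fold lower (Loxl2, Plod1, Plod2 and P4ha2; 7.22% of all genes) and 2 were 2-fold higher (Loxl1 and P4ha3; 7.51% of all genes), with a median of -0.15 against 0.09 over all genes. The 2 controls also differed from each other. In sh-Luc, 4 of 10 were 2-fold lower than in FLAG (8.58% of all genes) and 3 were 2-fold higher (12.4% of all genes). The 4 lower ones were Loxl2, Plod1, Plod2 and P4ha2 and the 3 higher ones Loxl1, Loxl3 and P4ha3. This comparison shares the FLAG sample with the overexpression comparison and the sh-Luc sample with the knockdown comparison. With the controls exchanged, FLAG-CACUL1 was 2-fold above sh-Luc for 4 enzymes (5.04% of all genes) and 2-fold below it for 1 (4.87%), and sh-CACUL1 was 2-fold below FLAG for 7 (15.4%) and 2-fold above it for 0 (7.45%).

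**Figure D1:**
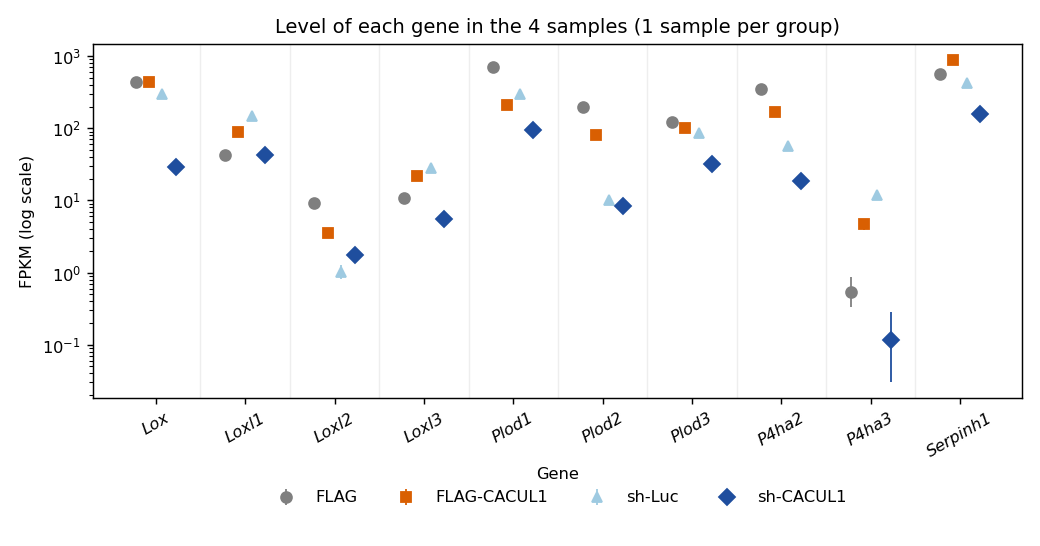
FPKM on a log axis of the 10 genes in the 4 lines, 1 sample each, with bars for the 95% counting interval where it is wider than the symbol. The sh-CACUL1 symbol is the lowest of the 4 for 8 genes, with Loxl1 and Loxl2 as the exceptions, and the lowest point of the plot is P4ha3 in sh-CACUL1 at 0.116 FPKM.

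Across the 4 samples, sh-CACUL1 had the lowest level of 8 of the 10 enzymes, where it was lowest for 41.6% of all genes. FLAG had the highest level of 6 enzymes (22.3% of all genes), which were Lox, Loxl2, Plod1, Plod2, Plod3 and P4ha2. The sh-Luc sample was highest for Loxl1, Loxl3 and P4ha3 (37.1% of all genes), and FLAG-CACUL1 for Serpinh1 (21.8% of all genes). The lower levels in sh-CACUL1 thus joined most enzymes, while the order of the other samples set them apart from each other.

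The lysyl oxidases came from several of these patterns. Lox, on chromosome 18, encodes the lysyl oxidase that was the most abundant of the family in 3 samples, and it had 442 FPKM in FLAG and 435 in FLAG-CACUL1, against 302 in the sh-Luc line and 29.4 in the sh-CACUL1 line. The first 3 samples lay within 1.46-fold of each other, and sh-CACUL1 stood far below them. The ratio of sh-Luc to sh-CACUL1 was 10.3 (9.84 to 10.8), a log2 change of -3.32, and that of FLAG to FLAG-CACUL1 was 1.02 (0.999 to 1.03). Against FLAG, the other control, Lox in sh-CACUL1 was lower by a ratio of 15.04, so its position did not depend on the control.

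Loxl1, whose product is known for its part in elastic fibers, lies on the minus strand of chromosome 9 from 58287723 to 58313212 (GRCm38). It had 42.2 FPKM in FLAG and 89.7 with FLAG-CACUL1, and in the hairpin lines 149 with sh-Luc and 42.7 with sh-CACUL1. FLAG and sh-CACUL1 were alike, with a ratio of 1.01 (0.951 to 1.08), although 1 is a control and the other the knockdown. On the log2 scale FLAG-CACUL1 changed by 1.07 and sh-CACUL1 by -1.78 with the matched controls. Set against the other control it was -0.72 for the former and 0.02 for the latter.

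Loxl3, on the plus strand of chromosome 6 from 83034205 to 83052566, is a lysyl oxidase with scavenger receptor domains and followed a course like that of Loxl1. It had 10.9 FPKM in FLAG and 21.9 in FLAG-CACUL1, against 28.3 in the sh-Luc line and 5.55 in the sh-CACUL1 line. FLAG-CACUL1 was above FLAG by a ratio of 2.00 (1.82 to 2.20), but the log2 change of 0.94 fell just short of the cut-off. In sh-CACUL1 the change was -2.16, a ratio of 5.10 (4.56 to 5.73) in favor of sh-Luc. Loxl3 shares 535 exon bases with Htra2 on the opposite strand, and the strand setting of the library is not given in the sources used here. Htra2 had 17.3 FPKM in FLAG and 17.3 with FLAG-CACUL1, and in the hairpin lines 20.7 with sh-Luc and 15.6 with sh-CACUL1, a narrower range than that of Loxl3.

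Loxl2, another lysyl oxidase with scavenger receptor domains, lies on the plus strand of chromosome 14 from 69608692 to 69695834. It was the only lysyl oxidase among the 4 that was not lowered 2-fold in sh-CACUL1. It had 9.07 FPKM in FLAG and 3.56 in FLAG-CACUL1, against 1.03 in the sh-Luc line and 1.78 in the sh-CACUL1 line. FLAG was well above the other samples, and sh-Luc, the lowest, rested on about 75 fragments. On the log2 scale FLAG-CACUL1 changed by -1.14 and sh-CACUL1 by 0.45, and that between the controls was -2.31 for sh-Luc against FLAG. Loxl2 shares 301 exon bases with Gm27177 on the opposite strand, which has no row of its own.

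**Figure D2:**
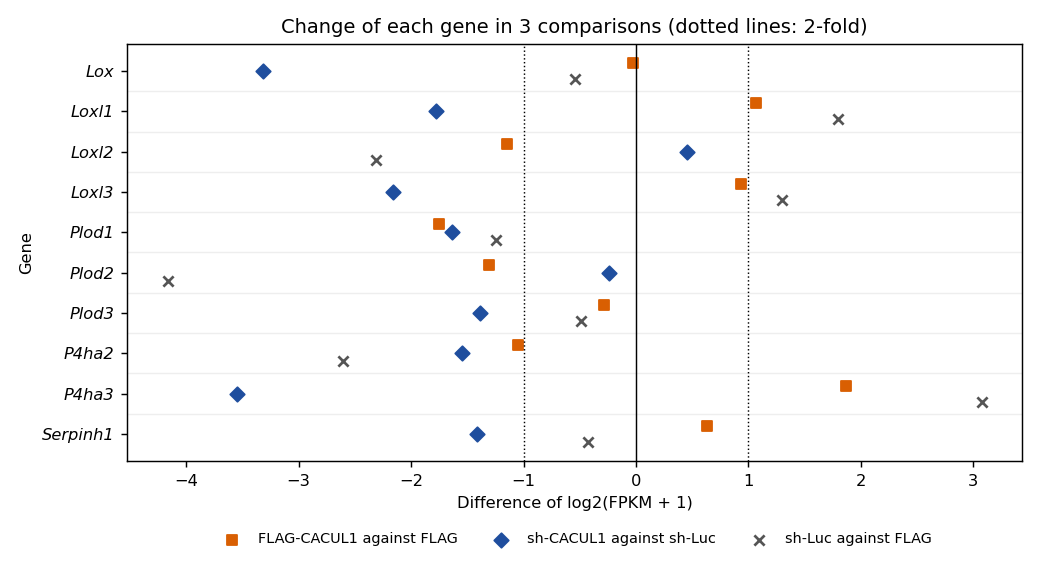
Difference of log2(FPKM + 1) for each gene in FLAG-CACUL1 against FLAG, sh-CACUL1 against sh-Luc and sh-Luc against FLAG, with dotted lines at 2-fold. The sh-CACUL1 symbols lie left of 0 for every gene but Loxl2, while the FLAG-CACUL1 symbols lie on both sides, from -1.76 for Plod1 to 1.87 for P4ha3.

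Because the members moved unequally, the make-up of the lysyl oxidase transcripts differed between samples. Together with Loxl4, the family summed to 511 FPKM in FLAG and 566 with FLAG-CACUL1, and in the hairpin lines 490 with sh-Luc and 80.1 with sh-CACUL1. Lox made up 86.5%, 76.9%, 61.8% and 36.7% of this sum, in the same order. Loxl1 made up 8.26%, 15.9%, 30.4% and 53.3%, so that in sh-CACUL1 it took the place of Lox as the leading transcript. These shares are taken within a sample and do not depend on the scaling between samples.

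The lysyl hydroxylases were led by Plod1, on the minus strand of chromosome 4 from 147909753 to 147936776, whose product LH1 modifies lysines in the triple helix. Plod1 had 706 FPKM in FLAG and 208 in FLAG-CACUL1, against 297 in the sh-Luc line and 94.99 in the sh-CACUL1 line. FLAG was the highest and sh-CACUL1 the lowest, and both conditions were below their own control. On the log2 scale FLAG-CACUL1 changed by -1.76 and sh-CACUL1 by -1.64, ratios of 3.39 (3.31 to 3.47) and 3.13 (3.03 to 3.23) in favor of the control. Plod1 and P4ha2 were the 2 enzymes that were 2-fold lower than the matched control in both conditions, where 0.802% of all genes were. Against sh-Luc, the change in FLAG-CACUL1 was -0.51 for Plod1, under the cut-off, and 1.56 for P4ha2. Loxl1 and P4ha3 were the 2 that were 2-fold higher in FLAG-CACUL1 and 2-fold lower in sh-CACUL1 (3.02% of all genes).

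Plod2, on the plus strand of chromosome 9 from 92539636 to 92608428, encodes LH2, which hydroxylates lysines of the telopeptides at the ends of the collagen chains. It had 199 FPKM in FLAG and 80.1 with FLAG-CACUL1, and in the hairpin lines 10.2 with sh-Luc and 8.42 with sh-CACUL1. The samples parted by vector pair, with both FLAG lines far above both hairpin lines. The difference between the controls, a ratio of 19.6 (18.3 to 21.03), was larger than that between FLAG and FLAG-CACUL1, a ratio of 2.49 (2.40 to 2.58). In sh-CACUL1 the log2 change was -0.24. Within the lysyl hydroxylases Plod2 made up 19.4% in FLAG and 20.6% in FLAG-CACUL1 but 2.58% in sh-Luc and 6.20% in sh-CACUL1. Plod2 shares 346 exon bases with Gm38391 on the opposite strand.

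Plod3, on the plus strand of chromosome 5 from 136987019 to 136996646, encodes LH3, which also adds sugars to hydroxylysine. It was the steadiest of the lysyl hydroxylases, at 122 FPKM in FLAG and 99.5 in FLAG-CACUL1, against 86.6 in the sh-Luc line and 32.4 in the sh-CACUL1 line. The first 3 samples lay within 1.40-fold of each other, and sh-CACUL1 was below sh-Luc by a ratio of 2.67 (2.53 to 2.82). On the log2 scale FLAG-CACUL1 changed by -0.29 and sh-CACUL1 by -1.39. Plod3 shares 529 exon bases with Znhit1 on the opposite strand, which had between 20.5 and 27.8 FPKM in the 4 samples. The 3 lysyl hydroxylases summed to 1027 FPKM in FLAG and 388 with FLAG-CACUL1, and in the hairpin lines 394 with sh-Luc and 136 with sh-CACUL1.

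Of the prolyl 4-hydroxylase subunits, P4ha2 lies on the plus strand of chromosome 11 from 54100924 to 54131668 and encodes a catalytic alpha subunit. It had 346 FPKM in FLAG and 167 in FLAG-CACUL1, against 56.0 in the sh-Luc line and 18.5 in the sh-CACUL1 line, and thus stepped down through the samples in the same order as Plod2. The log2 change was -1.05 in FLAG-CACUL1, a ratio of 2.07 (2.01 to 2.14), and -1.55 in sh-CACUL1, a ratio of 3.02 (2.77 to 3.30), with the control higher in each. Between the controls it was -2.61. With sh-Luc in place of FLAG as its control, FLAG-CACUL1 was higher by 1.56, in the other direction.

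P4ha3, on the plus strand of chromosome 7 from 100285489 to 100319701, encodes another alpha subunit and was the least abundant of the 10 in FLAG and sh-CACUL1, while Loxl2 was the least abundant in FLAG-CACUL1 and sh-Luc. It had 0.545 FPKM in FLAG and 4.65 with FLAG-CACUL1, and in the hairpin lines 12.0 with sh-Luc and 0.116 with sh-CACUL1. In FLAG this stood for about 19 fragments and in sh-CACUL1 for about 4, so the size of its changes is loosely set. The ratio of sh-Luc to sh-CACUL1 was 104 with an interval from 41.6 to 394, and that of FLAG-CACUL1 to FLAG was 8.54 (5.19 to 14.3). On the log2 scale these were changes of -3.54 and 1.87, and the controls differed by 3.08 with sh-Luc higher. P4ha3 was the only enzyme under 1 FPKM in any sample, and the other 9 had at least 1 FPKM in all 4.

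P4ha1, the third alpha subunit and not among the 10 genes, had 244 FPKM in FLAG and 186 in FLAG-CACUL1, against 101 in the sh-Luc line and 22.7 in the sh-CACUL1 line. P4ha2 made up 58.6% of the 3 alpha subunits in FLAG and was the leading subunit there, whereas P4ha1 led in FLAG-CACUL1 with 52.0%, in sh-Luc with 59.7% and in sh-CACUL1 with 54.9%. The share of P4ha3 reached 7.12% in sh-Luc and was 0.0922% in FLAG. P4hb, the partner of the alpha subunits that also works as a disulfide isomerase, had 2529 FPKM in FLAG and 917 with FLAG-CACUL1, and in the hairpin lines 616 with sh-Luc and 499 with sh-CACUL1. The log2 change of P4hb in sh-CACUL1 was -0.30 and that of P4ha1 was -2.10, so the partner was lowered less than the catalytic subunits there. In FLAG-CACUL1 the order was the other way, at -1.46 for P4hb, -1.05 for P4ha2 and -0.39 for P4ha1.

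**Figure D3:**
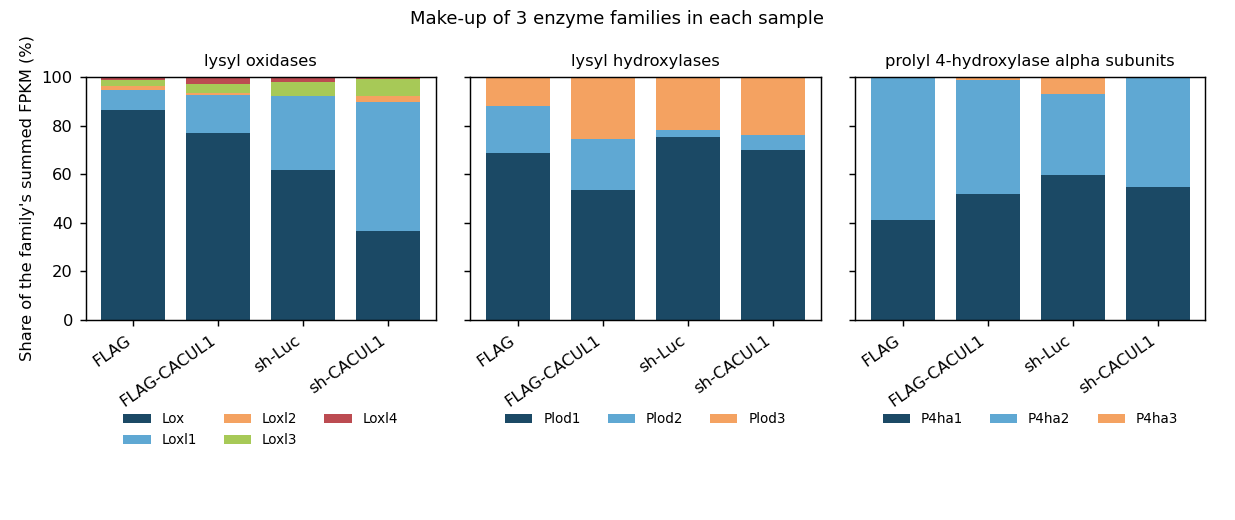
Stacked bars from 0 to 100% of the summed FPKM of the lysyl oxidases, lysyl hydroxylases and prolyl 4-hydroxylase alpha subunits in each sample. Lox shrinks from 86.5% in FLAG to 36.7% in sh-CACUL1, Plod2 is narrow in both hairpin lines, and P4ha3 is visible in sh-Luc at 7.12%.

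Serpinh1, on the minus strand of chromosome 7 from 99345375 to 99353239, encodes HSP47. It had 561 FPKM in FLAG and 872 in FLAG-CACUL1, against 418 in the sh-Luc line and 157 in the sh-CACUL1 line. It was the only enzyme or chaperone of the 10 with its highest level in FLAG-CACUL1, and sh-CACUL1 was again the lowest. The ratio of FLAG-CACUL1 to FLAG was 1.55 (1.52 to 1.58), a log2 change of 0.63 that stayed under the cut-off. The ratio of sh-Luc to sh-CACUL1 was 2.67 (2.59 to 2.75), a log2 change of -1.41.

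Promoter sequences were at hand for 5 of the 10 genes. Those of P4ha2 and Plod1, 2-fold lower in both conditions than in the matched control, and that of Plod3, which was steadier, are shown. P4ha2, Plod1 and Plod3 were each highest in FLAG. Each window shown is the 250 bases before the gene's start, 5′ to 3′ on the gene's strand, from RefSeq on GRCm38.p6. Capitals mark ACGTG and GCGTG on either strand, the core that hypoxia-inducible factors recognize. The motif was chosen after the values had been seen.
P4ha2, chr11:54100674-54100923, plus strand: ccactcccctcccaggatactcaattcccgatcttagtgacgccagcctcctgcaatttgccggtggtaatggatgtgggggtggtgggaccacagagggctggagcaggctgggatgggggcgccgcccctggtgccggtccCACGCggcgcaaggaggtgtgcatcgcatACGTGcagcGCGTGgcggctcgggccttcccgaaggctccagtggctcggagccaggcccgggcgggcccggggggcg
Plod1, chr4:147936777-147937026, minus strand: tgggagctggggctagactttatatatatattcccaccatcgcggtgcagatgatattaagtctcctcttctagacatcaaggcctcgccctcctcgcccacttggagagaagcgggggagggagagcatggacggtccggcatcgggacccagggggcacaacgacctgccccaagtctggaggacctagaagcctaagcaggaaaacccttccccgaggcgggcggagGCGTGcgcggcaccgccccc
Plod3, chr5:136986769-136987018, plus strand: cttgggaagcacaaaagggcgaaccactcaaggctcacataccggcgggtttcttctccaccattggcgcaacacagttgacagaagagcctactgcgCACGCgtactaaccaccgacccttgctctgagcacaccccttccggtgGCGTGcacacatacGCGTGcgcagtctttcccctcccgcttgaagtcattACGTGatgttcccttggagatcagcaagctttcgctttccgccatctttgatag
The P4ha2 window holds 3 matches, that of Plod1 holds 1 and that of Plod3 holds 4, and those of Serpinh1 and P4ha3, not shown, hold 1 and 0. The P4ha3 window, from 100285270 to 100285519, runs past the gene start at 100285489 given above. Of 32851 windows of this length, 38.6% hold at least 1 match, 6.58% at least 3 and 2.58% at least 4. None of the 5 windows holds CACGTG, a motif of other factors that contains ACGTG and occurs in 6.02% of windows. GC content of these windows ran from 55.6% to 70.0%.

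The collagen chains that these enzymes act on were lower in sh-CACUL1 as well. Of 18 measured chains (19 listed), 11 were 2-fold lower than in sh-Luc and 0 were higher, with a median log2 change of -1.26. In FLAG-CACUL1, 1 chain was 2-fold higher and 3 were lower than in FLAG. Col1a1 had 2412 FPKM in FLAG and 2424 with FLAG-CACUL1, and in the hairpin lines 1095 with sh-Luc and 156 with sh-CACUL1, Col1a2 changed by 1.16 in FLAG-CACUL1 and by -2.21 in sh-CACUL1, and Col3a1 by 0.85 and -2.36. The basement membrane chains Col4a1 (-1.34 and -1.14) and Col4a2 (-0.96 and -1.37) and the fibril-associated Col16a1 (-0.93 and -2.17) were lower in both.

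Set against Col1a1, Col1a2 and Col3a1, a part of their substrate, the enzymes therefore looked different. Col1a1, Col1a2 and Col3a1 summed to 6093 FPKM in FLAG and 9706 in FLAG-CACUL1, against 4371 in the sh-Luc line and 822 in the sh-CACUL1 line. Per 1000 FPKM of these chains, Serpinh1 had 92.1 FPKM in FLAG, 89.8 in FLAG-CACUL1 and 95.6 in sh-Luc, which lay close together, and 190 in sh-CACUL1. Relative to these chains Plod3 was 1.99 times and Plod1 1.70 times as high in sh-CACUL1 as in sh-Luc. Lox was the exception among the abundant enzymes, since it was lower than the chains themselves, at 69.2 per 1000 in sh-Luc and 35.8 in sh-CACUL1. In FLAG-CACUL1, Plod1 was at 21.5 per 1000 against 116 in FLAG, Plod2 at 8.25 against 32.7 and P4ha2 at 17.2 against 56.8. These ratios depend on the chains chosen. Over all 18 measured chains the summed FPKM was 8814 in sh-Luc and 2725 in sh-CACUL1, a smaller fall. Per that sum, the rise of Serpinh1 and Plod3 in sh-CACUL1 would be smaller, and Plod1 would be nearly level between sh-Luc and sh-CACUL1.

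**Figure D4:**
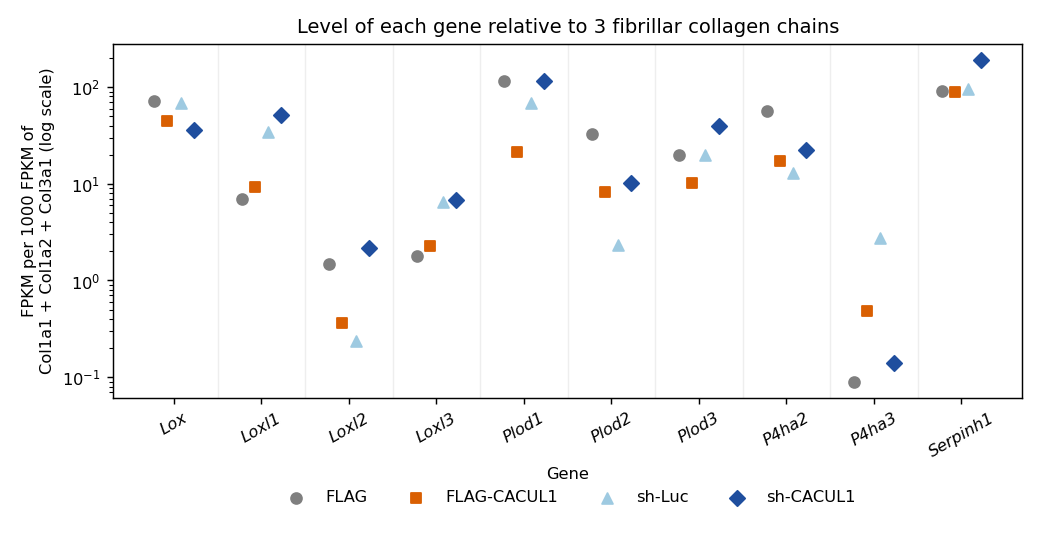
FPKM of each gene per 1000 FPKM of Col1a1, Col1a2 and Col3a1 summed, on a log axis, in the 4 samples. Serpinh1 sits between 89.8 and 95.6 in 3 samples and at 190 in sh-CACUL1, and Lox is lowest in sh-CACUL1 on this scale too.

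Other genes of collagen handling were taken as 2 lists by compartment. The endoplasmic reticulum list also holds general chaperones and transport genes. Of 25 measured partners in the endoplasmic reticulum (27 listed), 4 were 2-fold lower and 1 was higher in sh-CACUL1, with a median of -0.40, close to that of all genes. Over all genes 16.4% were lower and 4.94% were higher, so the count was near that share. The 4 lower ones were P4ha1 (-2.10), Sec24d (-1.94), Creb3l1 (-1.83) and Fkbp11 (-1.15), and the higher one was Pdia4 (1.05). In FLAG-CACUL1, 2 were lower and 1 was higher, with a median of -0.11. Those with the largest change in both conditions were Kdelr2 (-0.82 and -0.91), a receptor that returns proteins to the endoplasmic reticulum, Mia3 (-0.67 and -0.69), which helps load procollagen into carriers, P3h3 (0.80 and -0.54), a prolyl 3-hydroxylase family member, and Hspa5 (-1.11 and 0.50), the chaperone BiP. None of these 4 passed 2-fold in both conditions.

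The 14 measured genes of extracellular processing and crosslinking (17 listed) differed more. In sh-CACUL1 12 were 2-fold lower and 0 higher, with a median of -2.33, and in FLAG-CACUL1 6 were 2-fold higher and 0 lower, with a median of 0.99. The leading ones were Dcn (2.94 and -3.33), which encodes the collagen-binding proteoglycan decorin, Adamts2 (2.85 and -2.51), a procollagen N-proteinase, Pcolce2 (1.80 and -2.38), an enhancer of C-terminal processing, and Postn (1.51 and -2.30), which encodes periostin. Loxl4, the remaining lysyl oxidase, had 6.70 FPKM in FLAG and 15.3 with FLAG-CACUL1, and in the hairpin lines 9.05 with sh-Luc and 0.725 with sh-CACUL1. Among the 10 enzymes, Loxl1 and P4ha3 were 2-fold higher in FLAG-CACUL1 and 2-fold lower in sh-CACUL1, and Loxl3 (0.94 and -2.16) and Serpinh1 (0.63 and -1.41) had changes of the same signs.

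Of 14 measured elastic fiber genes (16 listed), 9 were 2-fold lower and 1 was higher in sh-CACUL1, with a median of -1.44, and in FLAG-CACUL1 3 were higher and 1 was lower, with a median of 0.29. Ltbp1, which encodes a TGF-β-binding matrix protein, changed by 1.45 and -1.67, Ltbp4 by 0.98 and -1.65, and Fbn1, which encodes fibrillin-1, by 0.39 and -1.60. Elastin itself was low, with Eln at 0.842 FPKM in FLAG and 2.98 in FLAG-CACUL1, against 0.741 in the sh-Luc line and 1.34 in the sh-CACUL1 line. Its level in every sample was far below that of Col1a1, per length.

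**Figure D5:**
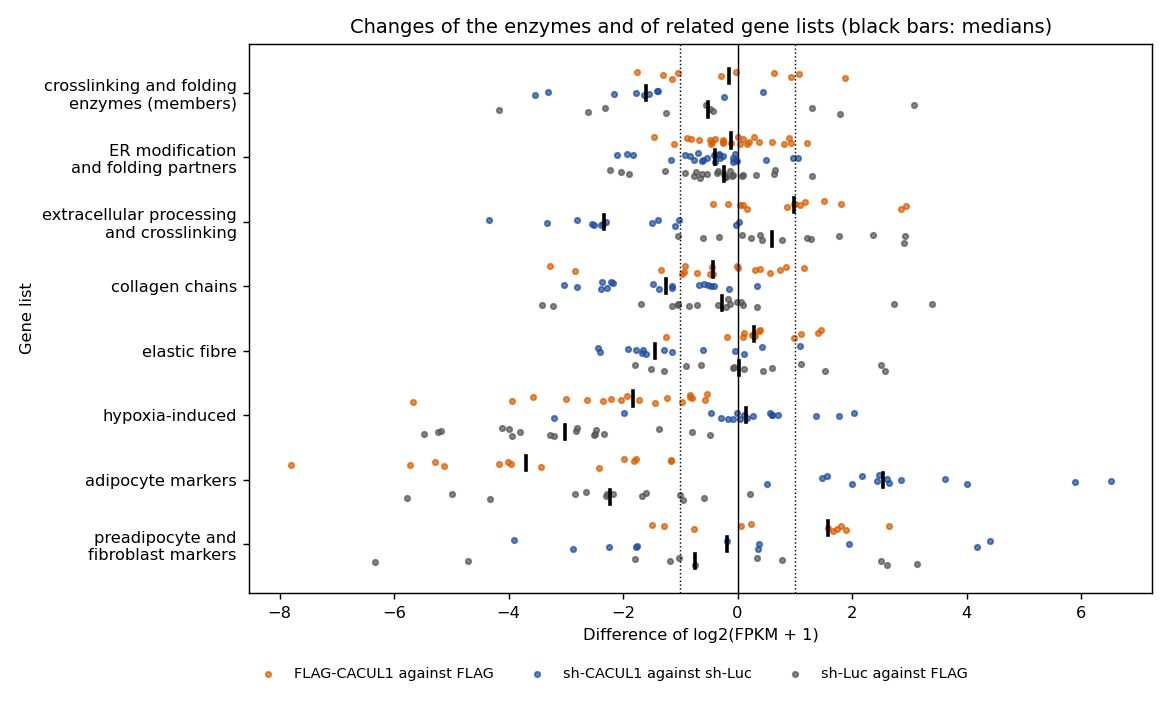
Difference of log2(FPKM + 1) for the 10 enzymes and the measured genes of 7 lists in 3 comparisons, with points for genes, black bars for medians and dotted lines at 2-fold. In sh-CACUL1 against sh-Luc the medians of the enzymes (-1.59), the extracellular processing genes (-2.33) and the collagens (-1.26) lie left of 0 and that of the adipocyte markers (2.55) lies right of it.

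The state of differentiation differed between the samples as well. Summed over 14 adipocyte markers, FPKM was 8859 in FLAG and 987 with FLAG-CACUL1, and in the hairpin lines 1893 with sh-Luc and 18586 with sh-CACUL1. All 14 were 2-fold lower with FLAG-CACUL1 than with FLAG, and 13 of 14 were 2-fold above sh-Luc with sh-CACUL1, among them Cfd (-7.81 and 5.90), Cidec (-5.72 and 4.01), Retn (-4.02 and 6.53) and Fabp4 (-3.96 and 3.62). FLAG held more adipocyte transcript than sh-Luc, with 11 of the 14 markers 2-fold higher. Loxl1, Loxl3 and P4ha3 had their 2 lowest levels in sh-CACUL1 and FLAG, the samples with the highest marker sums. Over all genes, sh-CACUL1 was the lowest sample for 41.6% and FLAG for 30.4%. The share of all genes with both of these samples lowest was not counted. In contrast, 6 of the 10 enzymes were highest in FLAG, namely Lox, Loxl2, Plod1, Plod2, Plod3 and P4ha2. For Lox the lead was slight, at 442 FPKM against 435 in FLAG-CACUL1. The part of differentiation in the enzyme levels was not tested.

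Preadipocyte and fibroblast markers gave a mixed picture. Of 11 measured (12 listed), 6 were 2-fold higher and 2 lower in FLAG-CACUL1, and 3 were higher and 5 lower in sh-CACUL1. Acta2 (2.65 and -3.91), S100a4 (1.89 and -2.25) and Pdgfrb (1.67 and -2.87) went with Loxl1 and P4ha3, while Thy1 (1.74 and 4.41) was higher in both. Dlk1 (-1.28 and 4.19) went the opposite way in both. Thy1 had 42.4 FPKM in FLAG and 144 in FLAG-CACUL1, against 0.663 in the sh-Luc line and 34.3 in the sh-CACUL1 line. Of 10 macrophage, endothelial and epithelial markers 4 had a row. Csf1r and Pecam1 were under 1 FPKM in every sample, Krt8 reached 2.63 FPKM in sh-Luc, and Cd68 had 16.2 FPKM in FLAG and between 0.962 and 1.44 FPKM elsewhere.

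A list of 18 hypoxia-induced genes had its highest summed level in FLAG. P4ha2, Plod1, Plod2, Lox and Loxl2 are themselves known to be induced by hypoxia and were not on the list. The summed FPKM of the 18 was 6335 in FLAG and 2576 with FLAG-CACUL1, and in the hairpin lines 800 with sh-Luc and 1346 with sh-CACUL1. In FLAG-CACUL1 12 were 2-fold lower and 0 higher than in FLAG, with a median of -1.83, and in sh-Luc 16 were lower and 0 higher than in FLAG, with a median of -3.01. In sh-CACUL1 3 were higher and 2 lower than in the sh-Luc sample, with a median of 0.14. The leading genes in both conditions were Adm (-3.58 and -3.21), Vegfa (-2.34 and 2.04), Slc2a1 (-3.94 and -1.98) and Pfkfb3 (-0.83 and 1.77).

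Loxl2 had the same order of the 4 samples as the summed FPKM of this list. In sh-Luc and sh-CACUL1 Loxl2 rested on about 75 and 82 fragments, and the list's median change between them was only 0.14. The share of all genes with this order was not counted. Plod2 and P4ha2 shared the order FLAG, FLAG-CACUL1 and then the hairpin lines, with sh-CACUL1 the lowest, and Plod1 was also highest in FLAG but had sh-Luc in the second place. Loxl1, Loxl3 and P4ha3 ran the other way between the controls and were 2-fold higher in sh-Luc than in FLAG. Lox, Plod3 and Serpinh1 differed by less than 2-fold between the controls. The part of hypoxia in the FLAG levels was not tested, and whatever set FLAG and sh-Luc apart cannot be told apart from the vector and the selection drug.

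The genes closest to the median pattern of the enzymes were sought over the 4 samples. The measure was the smallest root mean square distance from the median centered profile of the 9 enzymes with at least 1 FPKM in all samples. This profile was 1.11 in FLAG and 0.60 in FLAG-CACUL1, against 0.18 in the sh-Luc line and -1.41 in the sh-CACUL1 line on the log2 scale. The enzymes behind it differed, with Loxl1 and Loxl3 highest and Loxl2 lowest in sh-Luc, and Serpinh1 highest in FLAG-CACUL1. The 5 nearest genes were Rps6ka4, a kinase gene (distance 0.130), B4galt1, a galactosyltransferase gene (0.131), Iqgap1, a scaffold protein gene (0.143), Ahnak (0.150) and Npc1, a cholesterol transporter gene (0.155). Iqgap1 had 57.4 FPKM in FLAG and 35.6 with FLAG-CACUL1, and in the hairpin lines 27.1 with sh-Luc and 7.72 with sh-CACUL1. With 4 samples such likeness is a description only.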

How the data were processed

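Total RNA of 4 stable 3T3-L1 lines was sequenced, 1 sample per group, grouped by the labels' stable cell line field. Each file that the authors deposited holds FPKM of 13110 rows, named by RefSeq transcripts, from libraries made and sequenced by a company. The submitters' processing notes name mm10. The aligner, the FPKM program, normalization and filters are not given in the sources used here. A row of the files is never 0, and low FPKM values can stand for less than 1 fragment.

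Rows were named through GENCODE M21 (12914 rows), or else RefSeq on GRCm38.p6 (149 rows), 47 had no symbol and 8 had more than 1, and rows of a symbol were summed to 13085 genes. Changes are differences of log2(FPKM + 1) over all genes, and 2-fold, the study's cut-off, counted as a call, with no test. Depths were estimated from the spacing of FPKM multiplied by length in rows that name 1 transcript of 3000 bases or more, with lengths from GENCODE M21. Counting intervals are exact (Poisson for levels, conditional binomial for ratios) at 95%. The median FPKM of a row was between 5.66 and 8.27 in the 4 samples.

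The 10 genes and the gene lists were chosen with earlier results of these data known. From each list the text names the 4 genes with the largest smaller change over both conditions, plus Loxl4, P4ha1, P4hb, Col1a1, Col1a2 and Col3a1, and the 5 genes nearest in pattern. Fbn1 and Eln fall under that rule, and Htra2, Znhit1 and Cacul1 are checks. Outside that rule, Sec24d, Creb3l1 and Fkbp11 are named as 2-fold lower in sh-CACUL1 and Pdia4 as 2-fold higher. Dlk1 is named as a marker that went the other way, and Gm38391 and Gm27177 as overlapping genes. Alternatives were pseudocounts of 0.1 and 0, a filter of 1 FPKM, quantile and median-of-ratios scaling, the other control, the highest row per symbol, and cut-offs of 1.5-fold and 3-fold. Scripts were tested on simulated data. Python 3.11.15, numpy 2.4.6, pandas 2.3.3, scipy 1.17.1 and matplotlib 3.10.9 were used.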

Additional observations from a re-analysis of the deposited data

How the results depend on the processing

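With a pseudocount of 0.1 or none, or the highest row per symbol, the count of enzymes past 2-fold stayed at 6 in FLAG-CACUL1, 8 in sh-CACUL1 and 7 in sh-Luc against FLAG. At a cut-off of 3-fold it was 2 for FLAG-CACUL1 and 5 for sh-CACUL1. Scaling moved the median of all genes in sh-CACUL1 from -0.30 to 0.01 (median-of-ratios), and 6 of the 8 enzymes then passed 2-fold, with Plod3 at -0.92 and Serpinh1 at -0.94. Median-of-ratios scaling also took Loxl1 in FLAG-CACUL1 to 0.93, and quantile normalization took Plod1 in sh-Luc against FLAG to -0.92. The small change of Plod2 in sh-CACUL1, -0.24 as deposited, changed sign. It was 0.18 with median-of-ratios scaling and 0.22 with quantile normalization, so sh-CACUL1 was then not below sh-Luc for Plod2. The control mattered most. Against sh-Luc, the changes in FLAG-CACUL1 turned to -0.72 for Loxl1, 1.16 for Loxl2, 2.86 for Plod2, 1.56 for P4ha2 and -1.20 for P4ha3, and 4 enzymes were 2-fold higher and 1 lower. Plod1 moved from -1.76 to -0.51, under the cut-off. Against FLAG, Loxl1 in sh-CACUL1 was at 0.016, and 7 enzymes were 2-fold lower and 0 higher. Of these, Lox (-3.87), Plod1 (-2.88), Plod3 (-1.87), P4ha2 (-4.15) and Serpinh1 (-1.84) were 2-fold lower against either control. The cause of these shifts was not tested. No paired analysis was possible because each group has 1 sample. With about 4 and 19 fragments, P4ha3 in sh-CACUL1 and FLAG is limited by depth.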

Other observations

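Among the 10 enzymes, the pair most alike over the 4 samples was Loxl1 and Loxl3, with a root mean square distance of 0.344 between their centered log2 profiles, followed by Plod3 and Serpinh1 (0.385), Plod1 and Plod3 (0.532), and Plod2 and P4ha2 (0.609). The pair least alike was Plod2 and P4ha3, at 2.57. P4ha2 and P4ha3, both alpha subunits, were 2.04 apart. Serpinh1 and P4ha3 lie on the same chromosome within 1 megabase, on opposite strands, and had different orders of the samples.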
